A study of Homo sapiens with 26 samples.

Results

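CFTR and 4 genes whose products fold, degrade or anchor it were followed across 26 RNA sequencing libraries of 16HBE human airway epithelial cells. The genes were CFTR, SLC9A3R1, EZR, STUB1 and RNF5, taken as the rows of the count table that carry these symbols, 5 of 58735 genes. The groups were CF high glucose (6 libraries), CF normal glucose (6), WT high glucose (5), WT normal glucose (6) and WT not polarized (3), the last also in normal glucose. CF cells were the 16HBEge line, labelled DeltaF508 CFTR, and WT cells were the 16HBE14o- line, labelled WT CFTR. High glucose was 17.5 mM and normal glucose 5.5 mM, given for 7 days with medium replaced every day to cells on Transwells, which are porous culture inserts, and each library pooled the cells of 2 Transwells. The labels give the cells marked as not polarized the same growth and treatment text and do not say how they were kept from polarizing. Each genotype is represented by a single line, so line and genotype cannot be told apart. It is not stated whether the libraries of each group stem from cultures grown apart, and p-values measure only the spread between these libraries.

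CFTR is an apical membrane channel for chloride and bicarbonate, opened by phosphorylation through protein kinase A. The protein folds slowly in the endoplasmic reticulum, and the DeltaF508 protein is mostly retained there and degraded. RNF5, a membrane-anchored ubiquitin ligase of the endoplasmic reticulum, and STUB1 (CHIP), a cytosolic ubiquitin ligase that binds HSP70 and HSP90 family chaperones, both mark misfolded CFTR for the proteasome. CFTR that reaches the apical membrane binds through its C-terminal PDZ motif to SLC9A3R1 (NHERF1), a scaffold with PDZ domains, and SLC9A3R1 binds ezrin, the product of EZR, which links it to cortical actin and to protein kinase A.

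The stretch of CFTR that names the CF line's genotype lies on GRCh38 at chr7:117559563-117559625, plus strand, in exon 11 of 27 of transcript CFTR-201. It runs over codons 498 to 518 of 1480, in the GENCODE reference, with codon 508, a phenylalanine codon, in capitals.
CFTR codons 498 to 518: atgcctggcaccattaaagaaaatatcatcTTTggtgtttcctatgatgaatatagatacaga
The deposited counts sum reads over the whole gene. They do not show which allele a read came from, so the label of the CF line was not checked by them.

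RefSeq promoters (GRCh38.p14, 250 bases before to 50 after the annotated start) were matched for 4 of the 5 genes: CFTR, SLC9A3R1, EZR and RNF5. CFTR and EZR are printed because only they, among these 4, lack a motif, the GC box or the CCAAT box, that the other 2 genes hold. In CFTR (chr7:117479775-117480074, plus strand) the capitals mark a CCAAT box, here read on the other strand as ATTGG at -61, and TGACATCA, a sequence close to the cAMP response element, at -49. In EZR (chr6:158818186-158818485, minus strand) the capitals mark 5 matches to the GC box GGGCGG on either strand, some of them overlapping.
CFTR promoter: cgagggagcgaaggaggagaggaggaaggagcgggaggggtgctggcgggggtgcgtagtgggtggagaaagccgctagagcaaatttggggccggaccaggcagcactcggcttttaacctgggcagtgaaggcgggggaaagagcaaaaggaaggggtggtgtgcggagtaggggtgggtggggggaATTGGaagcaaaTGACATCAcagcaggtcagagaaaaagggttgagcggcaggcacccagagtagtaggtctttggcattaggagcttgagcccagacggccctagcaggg
EZR promoter: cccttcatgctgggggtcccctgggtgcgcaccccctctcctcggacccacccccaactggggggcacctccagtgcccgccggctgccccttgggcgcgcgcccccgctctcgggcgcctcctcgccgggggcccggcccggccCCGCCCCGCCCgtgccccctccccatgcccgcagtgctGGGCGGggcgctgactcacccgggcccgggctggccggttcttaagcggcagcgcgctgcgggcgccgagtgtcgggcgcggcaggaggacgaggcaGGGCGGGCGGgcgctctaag
Of 35116 RefSeq promoters of this length, 34.6% held CCAAT, 45% held GGGCGG and 2.61% held TGACATCA on either strand. The CFTR window held no GGGCGG and the EZR window no CCAAT. RNF5 had 4 CCAAT matches, a number that 0.991% of promoters reached, and 1 GC box, and SLC9A3R1 had 3 CCAAT matches and 5 GC boxes. None of the 4 held the palindrome TGACGTCA. These matches are letters in a window and are no evidence of binding.

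The libraries held 14658319 to 20413839 counts, and the 5 genes together took 0.186% to 0.257% of them. Of the 16 airway epithelial genes read, some were abundant, with group means of 180 to 259 FPKM for EPCAM and 288 to 333 FPKM for KRT8. Others were low, with group means of 0.345 to 1.85 FPKM for KRT14, 0.877 to 1.22 for KRT15, 0.0469 to 0.0792 for TP63 and 0.0701 to 0.196 for FOXA2. Among markers of differentiated airway cells, MUC5AC had 0 counts in all libraries, and SCGB1A1 had 6 counts in all. NKX2-1, another of the airway epithelial genes read, also had 0 counts in all libraries. In high glucose the 16 genes summed to 1481 to 1676 FPKM in CF and 1213 to 1313 in WT libraries. The sums were 1563 to 1719 and 1272 to 1490 FPKM in normal glucose, and 1342 to 1353 in WT not polarized libraries. Of 7 markers of ionocytes, the rare airway cells rich in CFTR, 3 or 4 were at 0 in every group and FOXI1 averaged 2.03 to 5.71 FPKM. Their summed level was 2.61 to 4.28 FPKM in CF high glucose, 2.01 to 3.58 in CF normal glucose, 3.75 to 6.66 in WT high glucose, 4.86 to 7.20 in WT normal glucose and 6.98 to 7.65 in WT not polarized libraries. The 4 endothelial markers, carried by CDH5 and KDR with PECAM1 near 0, summed to 5.11 to 10.0 FPKM in CF and 3.15 to 4.63 in WT glucose libraries, and to 6.83 to 7.49 in WT not polarized libraries. The part of these differences in the results between the lines and between the culture states was not tested. Within each glucose group the libraries numbered 1 to 3 stood apart from those numbered 4 to 6: ribosomal protein genes took 3.17% to 4.79% of counts in the first set and 2.42% to 3.59% in the second, with no overlap inside any of the 4 groups. The labels do not say what the numbers mean. Values within each set are therefore given beside the comparisons of the 5 genes where they change a call or an overlap.

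Per base of transcript, EZR was the most abundant of the 5 genes and STUB1 the least. EZR (ENSG00000092820, chromosome 6) averaged 367 FPKM over all libraries, rank 48 of 19951 protein-coding genes. RNF5 (ENSG00000204308, chromosome 6) averaged 102 FPKM, rank 312, and CFTR (ENSG00000001626, chromosome 7) averaged 73.7 FPKM, rank 488. SLC9A3R1 (ENSG00000109062, chromosome 17) averaged 20.04 FPKM, rank 2451, and STUB1 (ENSG00000103266, chromosome 16) averaged 16.2 FPKM, rank 3026. The ranges of EZR, RNF5 and CFTR over the 26 libraries were 309 to 471, 84.5 to 134 and 62.4 to 93.1 FPKM, so RNF5 and CFTR overlapped and EZR stood above both. SLC9A3R1 and STUB1 ranged over 15.7 to 25.5 and 13.8 to 21.6 FPKM, which also overlap. The scaffold SLC9A3R1 was therefore listed at a lower level per length than its membrane cargo CFTR in every library.

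**Figure D1:**
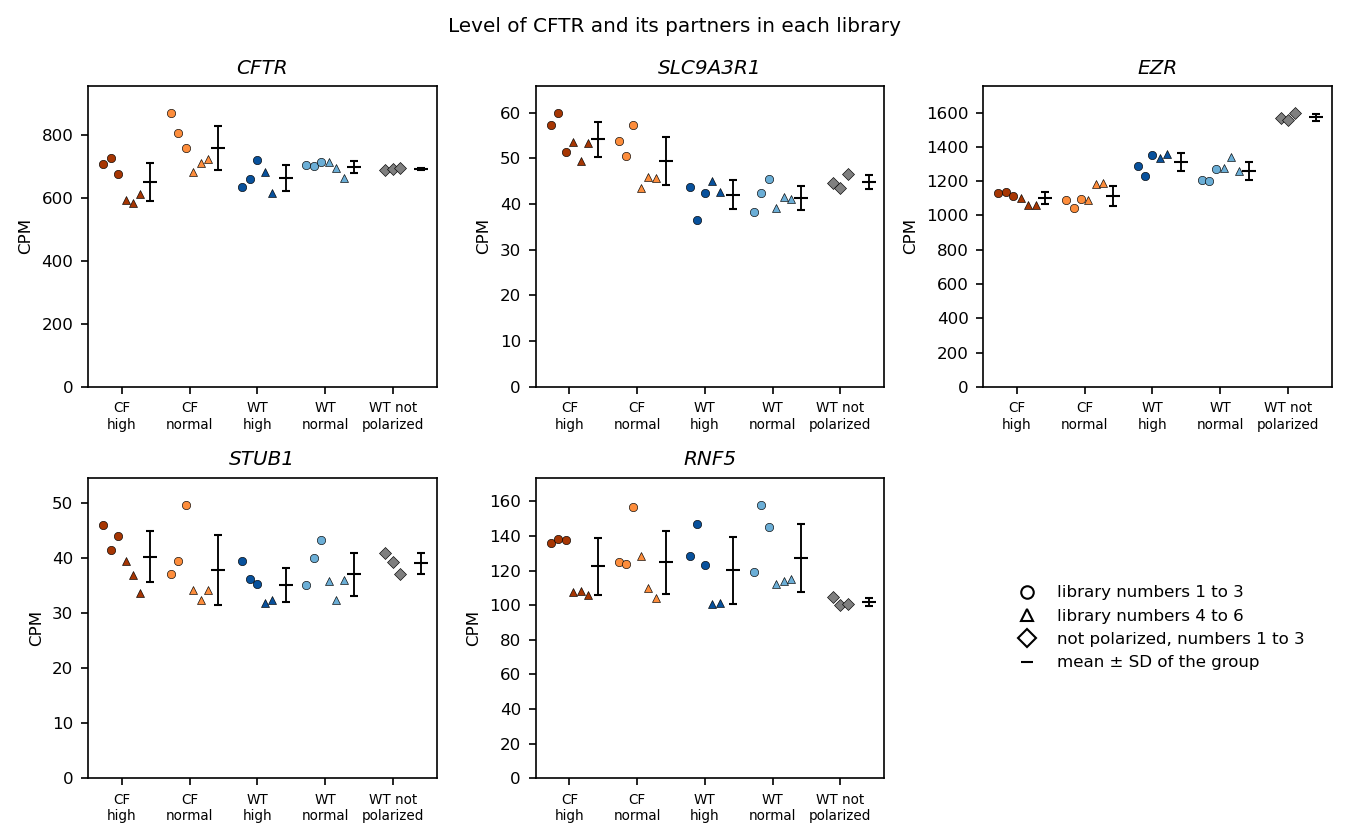
Each point is a library and gives the level of the named gene in CPM, and bars show mean ± SD per group. EZR was higher in all 11 WT than in all 12 CF glucose libraries and highest in WT not polarized libraries, while RNF5 and STUB1 separate mainly by library number (circles against triangles).

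CFTR, the channel itself, was lower in CF cells in high than in normal glucose, and no such difference passed the test in WT cells. Its level, in CPM (counts scaled to library size with TMM factors), had a lowest, median and highest value of 584, 643 and 725 in CF high glucose libraries, against 682, 742 and 868 in CF normal glucose libraries. The 2 ranges overlapped. By set of library numbers they did not: among numbers 1 to 3, CF high glucose libraries had 676 to 725 CPM and CF normal glucose libraries 759 to 868 CPM, and among numbers 4 to 6 they had 584 to 611 and 682 to 725 CPM. All 3 high glucose libraries lay below all 3 normal glucose libraries in each set, and the pooled overlap lay between high glucose libraries 1 to 3 and normal glucose libraries 4 to 6. The pooled log2 fold change, high over normal, was -0.22 ± 0.07 (SE), a 0.857-fold level (95% interval 0.779 to 0.942, adjusted p = 0.0348, edgeR quasi-likelihood test with Benjamini-Hochberg adjustment over 16338 genes). The same change was -0.21 in numbers 1 to 3 alone (adjusted p = 0.0369) and -0.24 in numbers 4 to 6 alone (adjusted p = 0.00198), and with a term for the set its adjusted p was 0.00104. In bulk RNA, fewer cells that express CFTR and less CFTR RNA per cell cannot be told apart. The call was lost when CF high glucose library 4, 5 or 6 or CF normal glucose library 1 or 2 was left out, with adjusted p between 0.0608 and 0.0802, and when only the CF groups were fitted (adjusted p = 0.0813).

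In WT cells CFTR had 633, 659, 719, 683 and 614 CPM in the 5 high glucose libraries, against 663, 703 and 715 CPM as lowest, median and highest in normal glucose. The high glucose libraries spread to both sides of the normal glucose ones. The log2 fold change was -0.07 ± 0.07 (adjusted p = 0.70), and the 95% interval of the fold ran from 0.860 to 1.05, which includes part of the interval seen in CF cells. The difference between the responses of CF and WT cells was -0.15 ± 0.10 on the log2 scale (adjusted p = 0.88), so the CFTR responses of the lines were not shown to differ.

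CFTR RNA was not called between CF and WT cells at either glucose level. It averaged 649 ± 61.0 CPM in CF cells (SD, n = 6) and 662 ± 41.3 in WT cells (n = 5) in high glucose, a 0.981-fold level with an interval of 0.888 to 1.08 (adjusted p = 0.85). Within numbers 4 to 6, CFTR was lower in all CF libraries (584 to 611 CPM) than in all WT libraries (614 to 683 CPM), without a call. In normal glucose it averaged 758 ± 68.7 CPM in CF cells and 699 ± 18.7 in WT cells (n = 6 each), a 1.09-fold level with an interval of 0.990 to 1.20 (adjusted p = 0.21). Within library numbers 1 to 3 the normal glucose difference was 0.21 (adjusted p = 0.0181), and within 4 to 6 it was 0.03 (adjusted p = 0.73). WT not polarized libraries had 688, 690 and 696 CPM. WT normal glucose cells stood at 1.02-fold of them (interval 0.942 to 1.11, adjusted p = 0.67). The WT normal glucose libraries numbered 1 to 3 (702 to 715 CPM) all lay above the not polarized libraries, without a call. Ordered by mean, the CFTR groups ran from CF normal glucose through WT normal glucose, WT not polarized and WT high glucose to CF high glucose, and each overlapped its neighbour in that order.

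**Figure D2:**
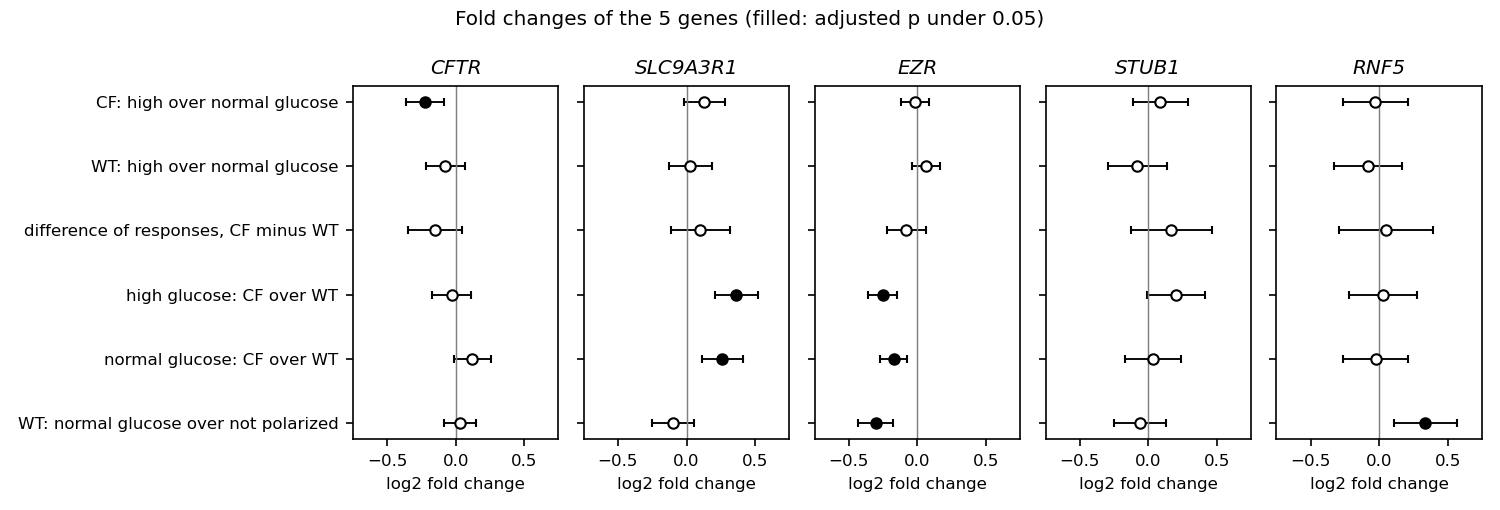
Points give the log2 fold change of each gene in each comparison with its 95% interval, filled where the adjusted p was under 0.05. SLC9A3R1 is above 0 and EZR below 0 in CF over WT at both glucose levels, CFTR is below 0 in CF cells in high over normal glucose, and EZR and RNF5 are the genes filled in WT normal glucose over not polarized.

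SLC9A3R1, the PDZ scaffold of CFTR, was higher in CF than in WT cells at both glucose levels. In high glucose its lowest, median and highest levels were 49.4, 53.5 and 59.9 CPM in CF cells, and the 5 WT libraries had 43.7, 36.6, 42.3, 44.9 and 42.6 CPM. Every CF library was above every WT library. The level was 1.29-fold (log2 0.36 ± 0.08 SE, interval of the fold 1.15 to 1.44, edgeR adjusted p = 0.000852), and it stayed called in each set of library numbers alone, at 0.46 in 1 to 3 and 0.23 in 4 to 6 on the log2 scale. In normal glucose the lowest, median and highest were 43.5, 48.2 and 57.2 CPM in CF cells and 38.3, 41.4 and 45.6 CPM in WT cells. These ranges overlapped at 43.5 to 45.6 CPM, between CF libraries 4 to 6 and WT libraries 1 to 3. Within each set every CF library was above every WT library. The ranges were 50.4 to 57.2 against 38.3 to 45.6 CPM in numbers 1 to 3, and 43.5 to 46.0 against 39.1 to 41.6 CPM in numbers 4 to 6. The level was 1.20-fold (log2 0.26 ± 0.07, interval 1.08 to 1.33, adjusted p = 0.00865). The difference was 0.36 in numbers 1 to 3 and 0.15 in numbers 4 to 6, and the smaller value did not pass alone (adjusted p = 0.116).

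Glucose did not move SLC9A3R1 past the threshold. CF cells averaged 54.2 ± 3.82 CPM in high and 49.4 ± 5.32 in normal glucose (log2 0.13 ± 0.07, adjusted p = 0.32), and within numbers 4 to 6 alone the change was 0.21 with an adjusted p of 0.0436. WT cells averaged 42.0 ± 3.21 CPM in high and 41.3 ± 2.57 in normal glucose (log2 0.03 ± 0.08, adjusted p = 0.92). Within numbers 4 to 6 the WT high glucose libraries (42.6 and 44.9 CPM) lay above the WT normal glucose libraries (39.1 to 41.6 CPM), without a call (log2 0.13, adjusted p = 0.43). WT normal glucose and WT not polarized libraries (43.5 to 46.5 CPM) also overlapped (log2 -0.10 ± 0.07, adjusted p = 0.25). The order of group means was CF high glucose, CF normal glucose, WT not polarized, WT high glucose and WT normal glucose, and each neighbouring pair overlapped.

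The ratio of the scaffold to the channel per length was also read within each library, a choice made after their values were seen and given without a test. The FPKM of SLC9A3R1 over that of CFTR was 0.307 to 0.364 in CF high glucose libraries, 0.250 to 0.304 in CF normal glucose, 0.224 to 0.280 in WT high glucose, 0.220 to 0.257 in WT normal glucose and 0.254 to 0.269 in WT not polarized libraries. All 6 CF high glucose libraries therefore lay above the other 20. A ratio within a library shows unequal change of the genes and not which of them changed.

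EZR, the membrane to actin linker that binds SLC9A3R1, was lower in CF than in WT cells, the direction opposite to that of SLC9A3R1. In high glucose its lowest, median and highest levels were 1059, 1111 and 1138 CPM in CF cells, and the 5 WT libraries had 1290, 1229, 1350, 1338 and 1357 CPM. In normal glucose the CF values were 1043, 1093 and 1192 CPM and the WT values 1203, 1263 and 1343 CPM. No CF library reached a WT library at either glucose level. The level in CF cells was 0.839-fold in high glucose (log2 -0.25 ± 0.05 SE, interval of the fold 0.780 to 0.902, edgeR adjusted p = 0.000481) and 0.887-fold in normal glucose (log2 -0.17 ± 0.05, interval 0.828 to 0.950, adjusted p = 0.0089). Both calls held in each set of library numbers alone and with every single library left out.

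EZR also differed with the culture state of WT cells. WT normal glucose libraries had 1203, 1263 and 1343 CPM (lowest, median, highest) and the WT not polarized libraries 1570, 1556 and 1596 CPM. The groups did not overlap. EZR fell to 0.809-fold in WT normal glucose cells relative to not polarized cells (log2 -0.31 ± 0.06, interval 0.741 to 0.884, adjusted p = 0.000705, edgeR fit of 16105 genes in 9 libraries). EZR was not called between high and normal glucose, at 1102 ± 33.8 against 1115 ± 58.9 CPM in CF cells (edgeR adjusted p = 0.90) and 1313 ± 53.8 against 1259 ± 52.1 CPM in WT cells (adjusted p = 0.63). The ranges overlapped in both lines, although WT high glucose libraries 3 and 5 (1350 and 1357 CPM) lay above every WT normal glucose library. Within numbers 1 to 3, the CF high glucose libraries (1116 to 1138 CPM) lay above the CF normal glucose libraries (1043 to 1095 CPM), and the change was not called (log2 0.06, adjusted p = 0.56). EZR was the gene whose group order had gaps: not polarized, then both WT glucose groups, then both CF groups, with overlap only between the glucose levels of a line.

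STUB1, the chaperone-bound ubiquitin ligase, passed the test in none of the 6 comparisons. Its lowest, median and highest levels were 33.7, 40.5 and 46.1 CPM in CF high glucose and 32.4, 35.7 and 49.7 CPM in CF normal glucose libraries. WT high glucose libraries had 39.5, 36.3, 35.3, 31.9 and 32.3 CPM, WT normal glucose libraries 32.4 to 43.3 CPM, and WT not polarized libraries 40.9, 39.3 and 37.1 CPM. All 5 groups overlapped. Within numbers 4 to 6 the WT high glucose libraries lay just below the WT normal glucose libraries (32.4 to 36.0 CPM), without a call (log2 -0.09, adjusted p = 0.64). The widest difference was CF over WT in high glucose, 1.15-fold with an interval of 0.992 to 1.33 (log2 0.20 ± 0.10, adjusted p = 0.198), and it passed once the set of library numbers entered the fit (log2 0.22, adjusted p = 0.0137). There every CF library lay above every WT library within each set. The ranges were 41.5 to 46.1 against 35.3 to 39.5 CPM in numbers 1 to 3, and 33.7 to 39.5 against 31.9 to 32.3 CPM in numbers 4 to 6. The difference was not called in either set alone. STUB1 shares 1200 bases with JMJD8 on the opposite strand (368 to 616 counts per library), and no source used here gives the strand setting of the counts, so reads of the 2 genes cannot be told apart there. JMJD8 was also called in none of the 6 comparisons.

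RNF5, the ligase of the endoplasmic reticulum membrane, was higher in WT normal glucose than in WT not polarized cells and was called in no other comparison. WT normal glucose libraries had 112, 117 and 158 CPM as lowest, median and highest, and the not polarized libraries had 105, 100 and 101 CPM. All 6 were above all 3. The level was 1.26-fold (log2 0.34 ± 0.11, interval of the fold 1.08 to 1.48, adjusted p = 0.0174). The call was lost without not polarized library 2 (adjusted p = 0.0658) or 3 (0.0617). The not polarized libraries carry the numbers 1 to 3, but the labels do not say that these mark the same set as in the glucose groups. Against WT normal glucose libraries 1 to 3 alone, which averaged 141 CPM, the change was 0.47 (edgeR adjusted p = 7.1e-05). WT normal glucose libraries 4 to 6 averaged 114 CPM, nearer to the not polarized mean of 102 CPM. RNF5 averaged 122 ± 16.6 CPM in CF high glucose, 125 ± 18.3 in CF normal glucose, 120 ± 19.4 in WT high glucose and 127 ± 19.5 in WT normal glucose, and these 4 groups overlapped. Within library numbers 4 to 6, the WT high glucose libraries (101 to 102 CPM) lay below the WT normal glucose libraries (112 to 115 CPM), and the change was not called (log2 -0.15, adjusted p = 0.23). Those WT high glucose libraries also lay below the CF high glucose libraries of that set (106 to 108 CPM), without a call. A processed copy of RNF5 elsewhere in the genome, RNF5P1, had 4 to 18 counts per library, against 1473 to 2667 for RNF5 itself.

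**Figure D3:**
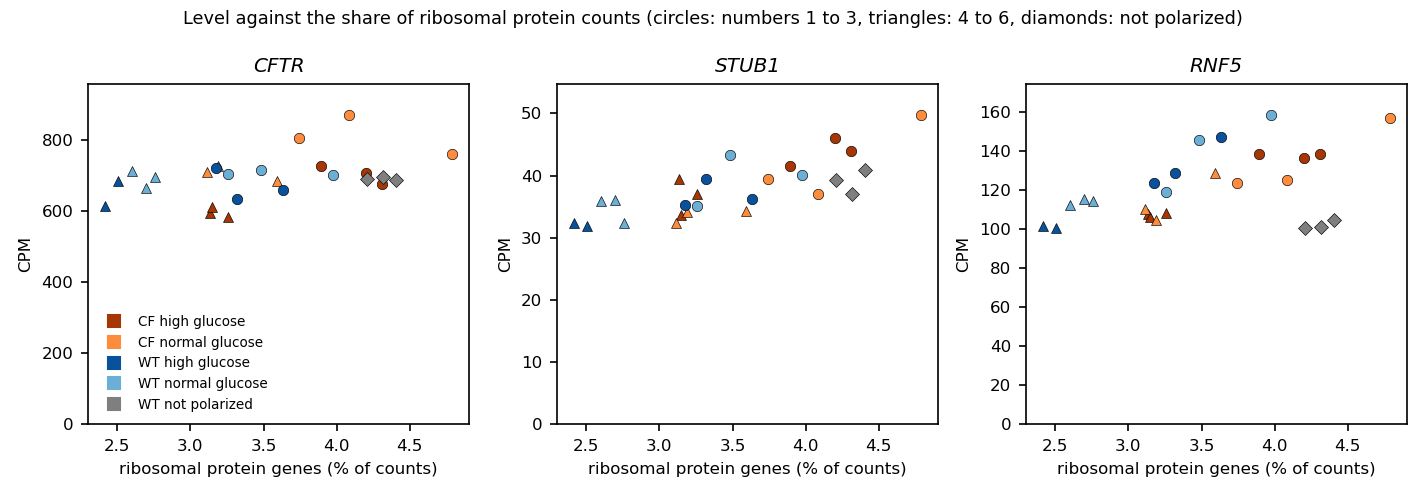
Each point is a library, with the share of its counts on ribosomal protein genes on the horizontal axis and the level of CFTR, STUB1 or RNF5 in CPM on the vertical axis. Libraries numbered 1 to 3 (circles) lie to the right of those numbered 4 to 6 (triangles) within each colour, and for RNF5 they also lie above them in all groups but CF normal glucose, where 1 triangle is among the circles.

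The spread inside the groups was itself patterned. RNF5 had 136 to 138 CPM in CF high glucose libraries 1 to 3 and 106 to 108 CPM in libraries 4 to 6, a ratio of means of 1.28, and the ratio was 1.18 in CF normal glucose, 1.31 in WT high glucose and 1.24 in WT normal glucose. STUB1 had ratios of 1.19, 1.25, 1.15 and 1.14 in the same order. CFTR had 1.18 and 1.15 in the CF groups but 1.03 and 1.02 in the WT groups, and EZR ran from 0.931 to 1.05. Residuals from the 5 group means were correlated at r = 0.82 between STUB1 and RNF5, 0.54 between CFTR and SLC9A3R1 and 0.53 between SLC9A3R1 and STUB1 over 26 libraries. These libraries share the split by number, so the correlations describe it in part and have no test.

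Calls were also counted over the 5 genes, beside the share of all genes called. In CF cells in high against normal glucose 1 of 5 was called (CFTR, lower), where 8.41% of 16338 genes were called. In WT cells high against normal glucose gave 0 of 5, beside 2.95% of genes, and the difference between the responses gave 0 of 5, beside 0.0367% of genes. For both of these, 0 of the 5 had an unadjusted p under 0.05 in edgeR, and DESeq2 and limma on FPKM also called 0. CF against WT gave 2 of 5 in high glucose, beside 19.9% of genes, and 2 of 5 in normal glucose, beside 24.4% (SLC9A3R1 higher and EZR lower each time). WT normal glucose against not polarized gave 2 of 5 (RNF5 higher, EZR lower), beside 50.0% of 16105 genes, so a count of that size is near the background there.

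Further genes of the CFTR pathway were read from 6 lists: cytosolic chaperones, quality control and ubiquitination in the endoplasmic reticulum (ER), anchoring and scaffolds, vesicle trafficking, cAMP and kinase signalling, and transcription factors that act at the CFTR locus. In CF against WT cells in high glucose 32 of 137 tested list genes were called (19 higher, 13 lower), beside 19.9% of all genes, and in normal glucose 48 of 137 (29 higher, 19 lower), beside 24.4%. The counts of single lists that follow are to be read against the same shares. Where a pair of log2 fold changes of CF over WT follows, it gives high and then normal glucose. The ER list had 4 higher and 2 lower of 26 in high glucose, and 7 higher and 3 lower in normal glucose. FBXO2, a ubiquitin ligase subunit that recognises glycoproteins with high-mannose glycans, averaged 121 ± 14.4 CPM in CF and 61.1 ± 9.78 in WT cells in high glucose, and 94.2 ± 9.38 and 51.7 ± 6.68 CPM in normal glucose (log2 0.98 ± 0.10 and 0.87 ± 0.10). All CF libraries were above all WT libraries. PDIA3, an oxidoreductase that acts with calnexin and calreticulin on glycoproteins, averaged 1251 ± 68.0 CPM in CF and 861 ± 35.3 in WT cells in high glucose, and its log2 fold changes were 0.54 ± 0.05 and 0.59 ± 0.05. CALR, which encodes calreticulin, rose by 0.46 and 0.48. SYVN1 (HRD1), a ubiquitin ligase of ER-associated degradation, was lower, at -0.40 ± 0.09 and -0.52 ± 0.09. The median log2 fold change of the ER list was 0.02 in high and 0.05 in normal glucose, beside 0.01 and 0.00 for all genes tested. RNF185, a ligase related to RNF5, was called in normal glucose alone (0.33 ± 0.07); the difference between the 2 glucose levels was not called for it.

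Of the vesicle trafficking genes, 5 were higher and 1 lower of 27 in high glucose and 10 higher and 0 lower in normal glucose in CF against WT cells. The normal glucose count was 5 with library numbers 4 to 6 alone, where 5111 of all genes tested were called. MYO5B, the motor that carries recycling vesicles to the apical membrane, averaged 17.2 ± 2.11 CPM in CF and 6.64 ± 0.489 in WT cells in high glucose, and 16.9 ± 1.62 and 5.85 ± 0.776 CPM in normal glucose. The groups did not overlap, and the log2 fold changes were 1.37 ± 0.11 and 1.53 ± 0.10. DAB2, an adaptor of clathrin endocytosis, had 44 to 87 counts per library in CF and 1 to 7 in WT cells in high glucose, and 42 to 67 and 0 to 5 counts in normal glucose. Its WT counts are too few for a firm fold, and the fitted log2 values of 3.87 and 5.15 depend on the prior count. RAB27A, a GTPase of secretory vesicles, rose by 0.35 at both glucose levels, and GORASP1, a Golgi stacking protein, by 0.22 and 0.25. The median of the list was 0.08 at both glucose levels.

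**Figure D4:**
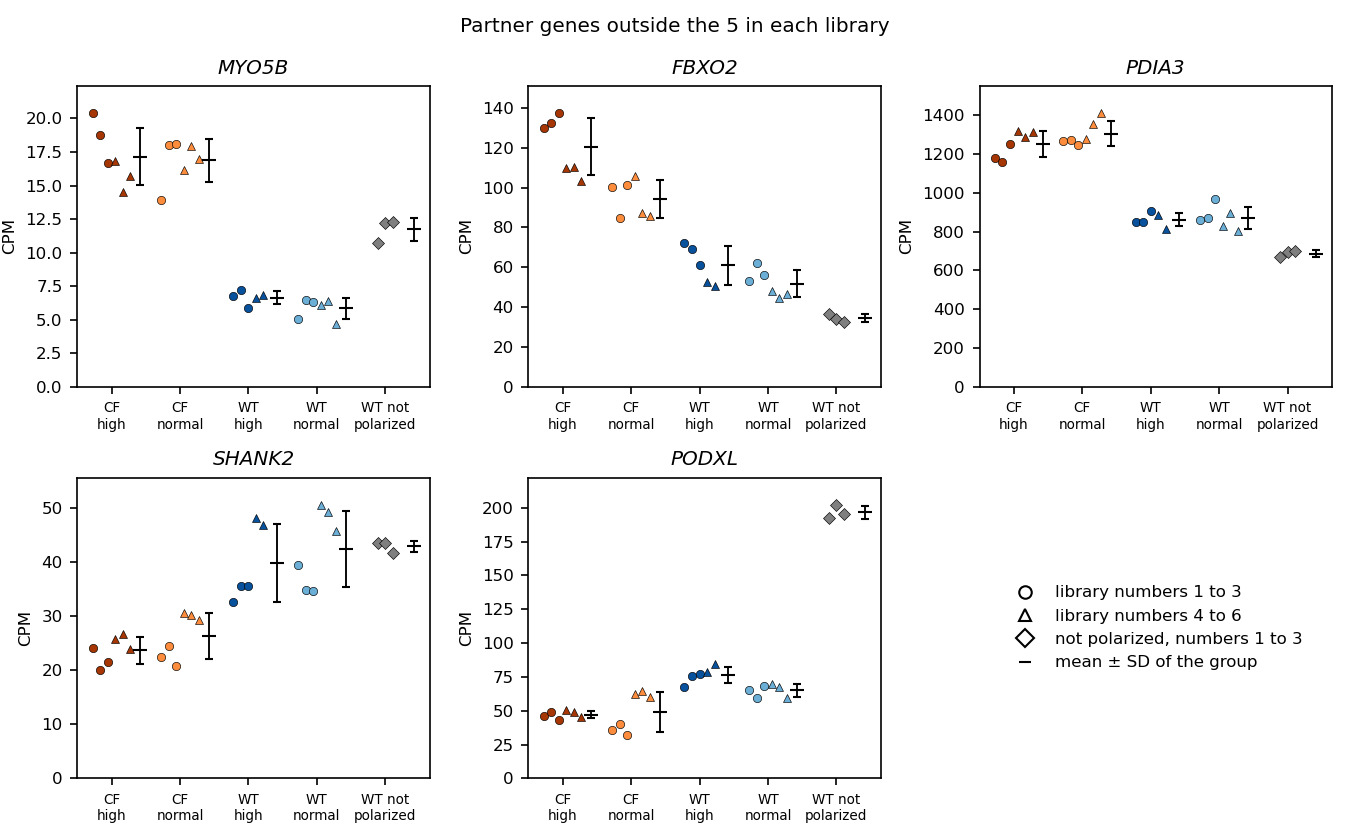
Each point is a library and gives the level in CPM of 5 list genes, with mean ± SD per group. MYO5B, FBXO2 and PDIA3 are higher in all CF than in all WT libraries, SHANK2 is lower, and PODXL is far higher in WT not polarized libraries than in any other group.

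Of the anchoring genes other than SLC9A3R1 and EZR, 1 was higher and 4 lower of 20 in high glucose, and 2 higher and 6 lower in normal glucose, in CF against WT cells. SHANK2, a PDZ scaffold that binds CFTR and competes with SLC9A3R1 for it, averaged 23.7 ± 2.56 CPM in CF and 39.8 ± 7.20 in WT cells in high glucose, and 26.4 ± 4.25 and 42.5 ± 7.10 CPM in normal glucose. Its log2 fold changes were -0.76 ± 0.13 and -0.69 ± 0.12, with no overlap of the lines. PODXL, an apical sialomucin that binds SLC9A3R1 and its relative, changed by -0.70 ± 0.13 and -0.40 ± 0.13. SLC9A3R2, the closest relative of SLC9A3R1, was lower in normal glucose (10.2 ± 1.53 CPM in CF and 13.6 ± 1.33 in WT cells, log2 -0.42 ± 0.10). SLC9A3, the sodium-proton exchanger after which the scaffolds are named, was the member called higher at both levels (1.15 ± 0.34 and 0.85 ± 0.29), at means of 0.616 to 1.91 CPM. FLNA, an actin cross-linker that binds CFTR, changed by -0.35 ± 0.09 and -0.25 ± 0.08. The medians of the list were -0.07 in high and -0.05 in normal glucose.

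The cytosolic chaperone list had 2 higher and 1 lower of 25 in high glucose and 3 higher and 4 lower in normal glucose in CF against WT cells. Once the set of library numbers entered the fit, 9 and 13 of 25 were called. That fit called 4973 and 5637 of all genes tested. STIP1 (HOP), which joins HSP70 to HSP90, was lower at both levels (-0.30 ± 0.05 and -0.37 ± 0.05), and BAG1, a nucleotide exchange factor that also binds STUB1, was higher (0.33 ± 0.09 and 0.31 ± 0.08). The signalling list had 1 higher and 4 lower of 20, and 3 higher and 4 lower. SGK1, a kinase that acts on the trafficking of CFTR and sodium channels, changed by -0.93 ± 0.15 and -0.60 ± 0.16. PTK2B, a calcium-activated tyrosine kinase, changed by -0.83 ± 0.09 and -0.89 ± 0.09, and the phosphodiesterase PDE4A, which breaks down cAMP, by -0.47 ± 0.12 and -0.53 ± 0.12. ADCY6, an adenylyl cyclase, rose by 0.34 at both levels. Of 19 transcription factors, 6 were higher and 1 lower in high glucose and 4 higher and 2 lower in normal glucose. EHF, an epithelial ETS factor that acts in the airway CFTR regulatory region, averaged 16.2 ± 1.06 CPM in CF and 9.22 ± 1.02 in WT cells in high glucose and rose by 0.81 ± 0.13, and by 1.07 ± 0.13 in normal glucose. BACH1, a heme-regulated repressor, rose by 0.49 and 0.76, and KLF5 by 0.50 and 0.43.

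**Figure D5:**
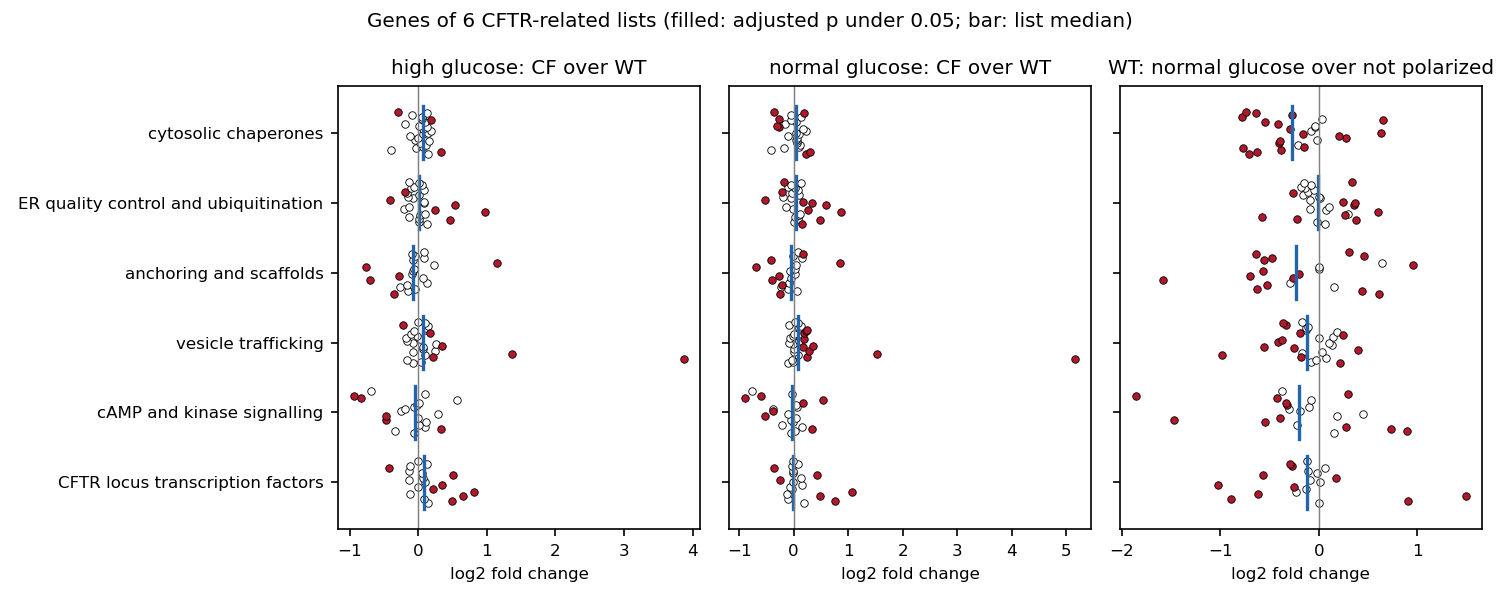
Each point is a gene of a list, placed by its log2 fold change in CF over WT cells in high and in normal glucose and in WT normal glucose over not polarized cells, and filled where the adjusted p was under 0.05. Blue bars are list medians, which lie between -0.07 and 0.09 for the lines and from -0.28 (cytosolic chaperones) to -0.01 (ER list) in the last comparison.

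Glucose called 21 of 137 list genes in CF cells (14 higher, 7 lower), beside 8.41% of all genes, and 7 of 137 in WT cells (6 higher, 1 lower), beside 2.95% of all genes. In CF cells 5 chaperones rose and 0 fell of 25: HSPA1A by 0.52 ± 0.09, HSPA1B by 0.41, HSPB1 by 0.33, HSPH1 by 0.24 and STIP1 by 0.23. HSPA1A averaged 182 ± 21.9 CPM in high and 127 ± 20.8 in normal glucose, and reads of HSPA1A and HSPA1B may be split between near-identical copies. The chaperone count was 11 with library numbers 1 to 3 alone and also with a term for the set, where 1349 and 2811 of all genes tested were called. In WT cells HSPH1 rose by 0.33 and AHSA1, a co-chaperone of HSP90, by 0.22. In CF cells RNF185 fell to 79.2 ± 4.96 CPM in high glucose, against 102 ± 7.80 in normal glucose (log2 -0.37 ± 0.07), NEDD4L, a ligase of sodium channels, fell by 0.36, and FBXO2 rose by 0.36. SLC9A3R2 rose by 0.38 ± 0.10 in CF cells in high glucose and STX3, an apical syntaxin, fell by 0.35. SGK1 rose in both lines (0.80 ± 0.16 in CF and 1.13 ± 0.15 in WT cells), as did HIF1A (0.59 ± 0.08 and 0.38 ± 0.09) and STX6 (0.29 and 0.26), a syntaxin of the trans-Golgi network. No list gene had a called difference between the responses of the lines; 13 of 137 had an unadjusted p under 0.05 in edgeR. DESeq2 also called 0, while 2 chaperones were called with a term for the set, and 2 anchoring genes and 1 transcription factor with library numbers 4 to 6 alone. These 2 settings called 146 and 387 of all genes tested.

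WT normal glucose cells differed from not polarized cells in 77 of 136 list genes, 26 higher and 51 lower, in a comparison where 50.0% of all genes were called. Of 25 cytosolic chaperones 4 rose and 15 fell, with a list median of -0.28 beside 0.02 for all genes. HSPH1 fell by 0.78, BAG3 by 0.77 and STIP1 by 0.74, while HSPB1 rose by 0.65 and FKBP8, a membrane-bound immunophilin that acts on CFTR, by 0.63. Of 20 anchoring genes 5 rose and 10 fell, with a median of -0.23. PODXL had 65.0 ± 4.62 CPM in WT normal glucose and 197 ± 4.95 in not polarized cells (log2 -1.58 ± 0.07), GOPC (CAL), a Golgi PDZ protein that sends CFTR to lysosomes, had 74.5 ± 4.95 and 116 ± 1.43 CPM (-0.62 ± 0.07), and SLC9A3R2 changed by -0.55 ± 0.10. The rises were led by SLC26A6, an anion exchanger that interacts with CFTR, at 0.96 ± 0.12, and FLNA at 0.61. Among signalling genes SGK1 fell by 1.85, while ADCY6 rose by 0.74. In trafficking, with 3 higher and 9 lower of 26, MYO5B fell by 0.99, and 20 of 26 were called with library numbers 1 to 3 alone. That setting called 8984 of all genes tested. The ER list had 7 higher and 3 lower of 26, among them FBXO2 (0.60) and CALR (0.38) as rises and CBL (-0.58), a ligase that acts on CFTR at the cell surface, as a fall.

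Genes around the 5 members were read within 1000000 bases to each side. The shares of all genes called, in either direction, were 19.9% for CF against WT in high glucose, 24.4% in normal glucose and 50.0% for WT normal glucose against not polarized cells. Around EZR, 8 of 15 tested genes were lower and 0 higher in CF than in WT cells in high glucose (median -0.14), and 4 lower and 1 higher in normal glucose. They included SYTL3, which ends next to EZR (-0.50 and -0.42), TULP4 (-0.46 and -0.37), ACAT2 (-0.65 and -0.60) and FNDC1 (-2.19 and -1.82), and SOD2 was the gene that was higher in normal glucose (0.33). In WT normal glucose against not polarized cells 8 of the 15 were lower and 2 higher (median -0.43). Around CFTR, 3 of 6 tested genes were lower in CF than in WT cells in high glucose and 0 were called in normal glucose: CAV1 (-0.46), CAV2 (-0.37) and MET (-0.25). MET was also the single neighbour called in CF cells in high against normal glucose (-0.35 ± 0.05). Around RNF5, on the short arm of chromosome 6, 30 of 66 genes were higher and 7 lower in WT normal glucose than in not polarized cells (median 0.32). Only the share called in either direction was near that of all genes, of which 4188 were called higher and 3857 lower (median 0.02). Around STUB1 in that comparison 25 of 50 were higher and 5 lower, while STUB1 itself was not called. Around SLC9A3R1, 4 genes were higher and 1 lower of 35 in CF than in WT cells in high glucose, and 2 higher and 5 lower in normal glucose.

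The genes with levels most like each member over the 26 libraries were sought among 10708 protein-coding genes, as Pearson r of log2 CPM. EZR was closest to CCND1 (r = 0.97), SPIRE1 (0.97) and SART1 (0.97). RNF5 was closest to CLIC1 (0.94), which lies on chromosome 6 as well, BCL7C (0.94) and MCRIP1 (0.94). STUB1 was closest to MRPL57 (0.88), CNP (0.88) and SLC25A11 (0.87), SLC9A3R1 to HES2 (0.88), TFRC (0.88) and ABCF2 (0.87), and CFTR to ATF2 (0.87), ATAD2 (0.85) and MUT (0.84). Within groups, as residuals from the group means, EZR was closest to ACTB (0.88), RNF5 to FKBP8 (0.97), RPL15 (0.97) and RPS2 (0.97), STUB1 to DGCR6L (0.94), SLC9A3R1 to NTN4 (0.88) and CFTR to XRCC5 (0.93). These libraries share groups and the split by library number, and the values are descriptions without a test.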

How the data were processed

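Poly(A)-selected RNA of 16HBE cells was sequenced in 26 libraries, aligned with HISAT2 to hg38 per the submitters' processing notes. No source used here gives the aligner's version, the counting tool or the strand setting, and per the labels' protocols the libraries may be directional or not. The authors deposited raw counts per gene for 58735 genes, which are whole numbers with no scaling, and FPKM values. The FPKM are not plain counts divided by gene length and library total. Their median ratio to that quotient ran from 0.945 to 1.07 between libraries, so they carry a further factor for each library. Library totals ran from 14658319 to 20413839 counts. Gene identifiers matched GENCODE release 29.

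CPM were computed with edgeR 4.0.16 (R 4.3.3) from TMM factors over all libraries. The 23 glucose libraries shared a quasi-likelihood fit (filterByExpr with minimum count 10 and minimum total 15, robust dispersion, 19 residual degrees of freedom, 16338 genes), which gave 5 contrasts: high over normal glucose in CF and in WT cells, the difference of these, and CF over WT in high and in normal glucose. The WT normal glucose and WT not polarized libraries were fitted separately (9 libraries, 7 residual degrees of freedom, 16105 genes). P-values were adjusted by Benjamini and Hochberg over all genes tested, and an adjusted p under 0.05 was called. The fit was tested on simulated data.

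The 5 genes, the 6 lists and the tests were chosen with earlier results of these data known. List genes named in the text are called members, averaging 1 CPM or more in any group, among the 3 largest rises or falls of their list in a comparison, plus genes kept to show the same gene in another comparison. GOPC and GORASP1 are named as well, although neither is among those 3 in any comparison, and some called genes with larger changes are not named. Genes compared with a member for likeness averaged 5 CPM or more. Alternatives were DESeq2 1.42.0, RLE and upper quartile factors, no or a stricter low-count filter (at least 1 CPM in 5 libraries, 3 in the not polarized fit), limma 3.58.1 on log2 FPKM plus 1 or 0.1 (at least 0.5 FPKM in 3 libraries, or no filter), other libraries in the fit, a term for library numbers (1 to 3 against 4 to 6), either set of numbers alone, a block for the library number, and each library left out. No library was left out of the main results. One list gene is not reported here.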

Additional observations from a re-analysis of the deposited data

How the results depend on the processing

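The calls of EZR between the lines and against not polarized cells, and of SLC9A3R1 between the lines in high glucose, held under each alternative. Of the other member results, SLC9A3R1 in CF over WT in normal glucose lost its call with library numbers 4 to 6 alone (0.15), and CFTR in CF cells in high over normal glucose lost it with no low-count filter (-0.21, adjusted p = 0.0703), with FPKM and no filter (-0.22, adjusted p = 0.0539) and with only the CF groups fitted (-0.23, adjusted p = 0.0813). RNF5 in WT normal glucose over not polarized cells lost it with FPKM and no filter (0.31, adjusted p = 0.0942). Calls gained were CFTR in CF over WT in normal glucose with numbers 1 to 3 alone (0.21), SLC9A3R1 in CF cells with glucose with numbers 4 to 6 alone (0.21), and STUB1 in CF over WT in high glucose with a term for the set (0.22) and with the replicate block (0.23, adjusted p = 0.0162). Values that were not called and changed sign were, for glucose in CF cells, EZR (0.063 with numbers 1 to 3, 0.0042 with upper quartile factors) and RNF5 (0.019 with 1 to 3), for glucose in WT cells SLC9A3R1 (-0.035 with 1 to 3), for CF over WT in high glucose CFTR (0.066 with 1 to 3), for CF over WT in normal glucose RNF5 (0.0052 with 4 to 6) and STUB1 (-0.050 with 4 to 6), and for WT normal glucose over not polarized STUB1 (0.020 with 1 to 3, 0.025 with the block). The cause was not tested.

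With 1 library left out at a time, the glucose change of CFTR in CF cells ran from -0.27 to -0.19 and that of RNF5 from -0.084 to 0.042. CF over WT in high glucose ran from -0.065 to 0.0045 for CFTR and -0.028 to 0.109 for RNF5, and in normal glucose from -0.096 to 0.054 for RNF5 and -0.056 to 0.088 for STUB1. The difference between responses ran from -0.031 to 0.127 for RNF5, and RNF5 in WT normal glucose over not polarized cells from 0.27 to 0.37.

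Over all genes, glucose in CF cells called 1374 genes, and 2811 with a term for the set, 2328 with numbers 4 to 6, 891 with no filter and 2561 with the block. Upper quartile factors moved the share of these calls that were higher to 63.7%, against 50.8% with TMM factors. Glucose in WT cells called 482 genes, and 1418 with the term, 783 with DESeq2, 823 with numbers 4 to 6, 312 with FPKM and no filter, 319 with no low-count filter, 1092 with the block and 281 to 465 without single libraries. CF over WT in high glucose called 3253 genes, and 4973 with the term. The difference between responses called 6 genes, 33.3% of them higher, and 146 with the term, 56 with DESeq2 (46.4% higher), 1 and 387 with numbers 1 to 3 and 4 to 6, 3 with FPKM and no filter, 73 with the block and 0 to 19 without single libraries. Counts of called list genes moved by more than 1.5 times in 60 list results under these alternatives and 39 with a library left out, while every called list gene kept its sign with the term and in each set alone. All stayed called with the term, but calls were lost within each set. For glucose in CF cells 13 of 21 stayed called with numbers 1 to 3 alone. For CF over WT in normal glucose 35 of 48 did with numbers 4 to 6 alone.

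Same-numbered libraries were not treated as pairs. The mean correlation of same-numbered libraries' deviations over genes was 0.261 for glucose in CF and 0.236 in WT cells, compared with 0.241 and 0.225 for different numbers of a set, and in no comparison was every pair over 0.1. Each library correlated best with its own number in 1 or 2 pairs per comparison.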
